A study of Homo sapiens with 2 samples.

Results

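MicroRNA genes were the subject: the 173 of 18417 genes on the array whose symbol is that of a microRNA gene or a let-7 gene, leaving out host genes. They make up 0.939% of the genes. Each of the 173 genes was read by 1 sequence on the array that carries no other symbol. HT1080 cells, an established human fibrosarcoma line, were kept for 24 h in wells of a 24-well plate coated either with BSA, a protein control, or with rLCC111, a recombinant coiled-coil part of laminin-111 made from shortened mouse α1, β1 and γ1 chains. Both groups were the same line with no genetic change or drug. There was 1 well and 1 Affymetrix Human Gene 1.0 ST array per coating, so no difference has a replicate check, no test was possible, and the number of arrays limits the precision of every value. The comparison addresses which genes change their expression when cells meet the coiled-coil domain.

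A microRNA gene is copied into a long primary transcript, from which the nuclease DROSHA and its partner DGCR8 cut a short hairpin. The hairpin is exported by XPO5 and cut by DICER1, and 1 strand is loaded onto an argonaute protein, where its seed, bases 2 to 8, pairs with target messenger RNAs and lowers their stability or translation. Many microRNA genes lie inside introns or exons of longer host genes, and neighbours are often cut from 1 transcript. miR-21 is abundant in many tumours and is studied as an oncogenic microRNA, while the let-7 family restrains growth genes such as HMGA2, RAS and MYC. The array was labelled from total RNA and its sequences match primary or precursor transcripts, so nothing in these values is a level of a mature microRNA.

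The sequences shown are those of the genes with the largest differences and of the let-7 genes set against them. They were taken from RefSeq, build GRCh38.p14, 5′ to 3′, and 155 of the 173 genes have a hairpin there. In the hairpins the 5p mature product is in capitals. MIRLET7A2 lies at chr11:122146522-122146593 on the minus strand, MIRLET7A1 at chr9:94175957-94176036 on the plus strand, MIR21 at chr17:59841266-59841337 on the plus strand and MIR32 at chr9:109046229-109046298 on the minus strand.
MIRLET7A2: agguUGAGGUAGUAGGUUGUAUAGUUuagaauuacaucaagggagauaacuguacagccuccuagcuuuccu
MIRLET7A1: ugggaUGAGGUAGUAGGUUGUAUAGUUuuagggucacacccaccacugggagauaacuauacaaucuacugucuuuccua
MIR21: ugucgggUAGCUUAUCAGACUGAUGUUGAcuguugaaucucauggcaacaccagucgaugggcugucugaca
MIR32: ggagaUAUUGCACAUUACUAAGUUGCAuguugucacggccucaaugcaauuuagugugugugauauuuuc

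The mature products below, with the seed in capitals, show which of the genes share a seed. The let-7 products and miR-98-5p have the seed GAGGUAG, miR-181a-5p and miR-181b-5p have ACAUUCA, and miR-221-3p and miR-222-3p have GCUACAU.
let-7a-5p: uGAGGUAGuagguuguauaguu
let-7c-5p: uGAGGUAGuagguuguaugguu
let-7d-5p: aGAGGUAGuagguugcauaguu
let-7e-5p: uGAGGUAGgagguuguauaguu
let-7f-5p: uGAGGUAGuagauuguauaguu
let-7g-5p: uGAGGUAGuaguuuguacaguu
let-7i-5p: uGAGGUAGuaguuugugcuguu
miR-98-5p: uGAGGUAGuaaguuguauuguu
miR-21-5p: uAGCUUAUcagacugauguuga
miR-32-5p: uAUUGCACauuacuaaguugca
miR-181a-5p: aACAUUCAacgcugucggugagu
miR-181b-5p: aACAUUCAuugcugucggugggu
miR-221-3p: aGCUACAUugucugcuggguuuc
miR-222-3p: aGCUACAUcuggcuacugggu

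Levels are the deposited log2 values, and a difference subtracts the BSA value from the rLCC111 value of the same gene. The median over all sequences was 7.04 on the BSA array and 7.12 on the rLCC111 array. Levels up to a limit of 6.61 could not be told from silence. The limit is where the 95th percentile fell when 401 olfactory, taste and other sensory receptor genes were ranked by level, as genes that a fibrosarcoma line should not use. Not all of these sequences were dim: 14 were above the limit on both arrays, and the highest mean level was 11.40. Of the marker genes of a mesenchymal cell, 8 of 9 were above the limit, with VIM at 13.05 on BSA and 12.98 on rLCC111, while THY1 was at or below it. None of 5 endothelial markers was above it. Of 5 blood markers CD14 and SPI1 were above it and PTPRC was at 4.21 on both arrays, and of 7 epithelial markers KRT8, KRT18 and KRT14 were above it while CDH1 and EPCAM were not.

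Most microRNA genes gave a weak signal. The brighter array was above the limit for 45 of 173 (26.0%), against 12743 of all 18417 genes (69.2%). Both arrays were above it for 37 microRNA genes, 1 array for 8 and neither for 128. Mean levels over both arrays ran from 3.26 to 9.25 with a median of 5.21, beside a median of 7.81 over all genes. A sequence's brightness also depends on its own probes, so this is not an order of transcript amount between genes. For the 128 genes under the limit the values cannot tell a silent gene from one with little transcript.

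The 15 brightest microRNA genes included MIR326, at 9.20 on BSA and 9.30 on rLCC111, and MIR339, at 8.96 and 9.06. MIR210, the microRNA induced by hypoxia, was at 8.58 and 8.67. MIR25, of the MIR25/MIR93/MIR106B group inside MCM7, was at 8.40 and 8.45. These 4 genes differed by 0.05 to 0.10 between the arrays. Within the same 15, MIR21 and MIRLET7A2 were the 2 genes with a difference of at least 2-fold, and MIR320A and MIR149 had the same value on both arrays.

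A 2-fold difference was reached by 3 microRNA genes, all higher with rLCC111, and by none in the other direction. That is 1.73% of the 173 genes. Over all 18417 genes, 44 (0.239%) were higher by this measure and 16 (0.0869%) lower. Of 192 small nucleolar RNA genes, 2 (1.04%) were higher and 1 lower. MIRLET7A2, 1 of the genes that encode let-7a, had a level of 7.53 on the BSA array and of 8.94 on the rLCC111 array, a difference of 1.40 or 2.64-fold. MIR21, on the 1 sequence that names it, had 7.97 and 9.32, a difference of 1.35 or 2.55-fold. Both genes were above the limit on both arrays. MIR32, whose product shares the seed AUUGCAC with miR-25 and miR-92a, had 4.66 and 5.88, a difference of 1.23, but both values lie under the limit. Of the 401 sensory receptor genes, 2 passed 2-fold upwards and none downwards, around a median difference of 0.00 with an SD across genes of 0.18.

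At a threshold of 1.5-fold there were 6 microRNA genes higher on rLCC111 (3.47%) and none lower, beside 199 of all genes (1.08%) higher and 100 (0.543%) lower. The further 3 were MIR181A2 at 5.06 and 5.84, MIRLET7F1 at 4.56 and 5.25, and MIRLET7G at 6.38 and 7.02. Of these only MIRLET7G passed the limit, on the rLCC111 array. Sensory receptor genes and small nucleolar RNA genes leaned the same way. Of the 401 sensory receptor genes, 22 of which had the brighter array above the limit, 10 (2.49%) were higher at this threshold and none lower. Of 192 small nucleolar RNA genes 9 (4.69%) were higher and 3 lower. Among the 45 microRNA genes with the brighter array above the limit, the 2 genes with a 2-fold difference, both above it on both arrays, were 4.44%, where 0.322% of all genes above the limit were 2-fold higher and 0.126% were 2-fold lower.

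The remaining differences were small and lay more often above 0 than below. Of the 173 genes, 109 (63.0%) had a difference above 0, 41 (23.7%) below 0 and 23 (13.3%) exactly 0, while over all genes the shares were 46.2%, 46.6% and 7.19%. In the sensory receptor genes 49.4% were above 0 and 30.7% below, and in the small nucleolar RNA genes 57.3% and 37.0%. The median difference of the microRNA genes was 0.05, with quartiles at 0.00 and 0.13 and a range from -0.30 to 1.40, and that of all genes was 0.00. In the 37 microRNA genes with both arrays above the limit the median was 0.07, with 26 above 0 and 8 below, and in the 128 with neither above it 0.03. The other 8 passed the limit on the rLCC111 array alone, so their differences are above 0 by that choice; with them the median over 45 genes was 0.09. This split moved with the scaling. After quantile normalization 75 of the 173 genes were above 0 and 98 below, the median of the microRNA genes was -0.02 and that of all genes -0.06.

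**Figure D1:**
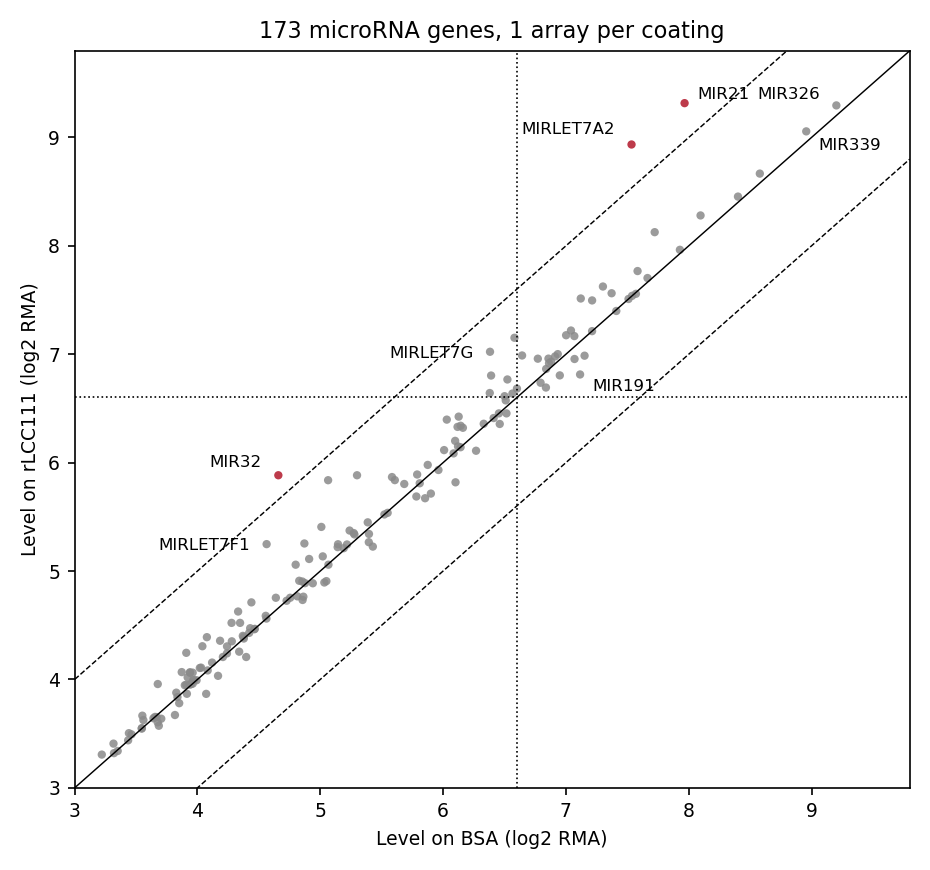
Levels of 173 microRNA genes on the BSA array (x axis, log2 RMA) and the rLCC111 array (y axis, log2 RMA), 1 point per gene and 1 array per coating; the solid line marks equal levels, the dashed lines 2-fold differences and the dotted lines the limit of 6.61. MIRLET7A2, MIR21 and MIR32, in red, lie above the upper dashed line, MIR32 with both levels under the limit, and no gene lies below the lower dashed line.

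Among the genes above the limit, 7 more of those with large positive differences were described by size. MIR222, which with MIR221 represses the cell cycle inhibitor CDKN1B, had 6.58 on BSA and 7.15 on rLCC111, which differ by 0.57. MIR31, a gene inside the noncoding RNA MIR31HG, was at 7.12 and 7.51, and MIR197 at 7.72 and 8.13. MIR196A1, which lies among the HOX genes, was at 7.30 and 7.62. MIR23A had 6.64 and 6.99, MIRLET7D 6.39 and 6.80, and MIR194-2 7.21 and 7.50. All 7 were short of 1.5-fold. MIR222 and MIRLET7D were under the limit on the BSA array.

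No microRNA gene was lower on rLCC111 by 1.5-fold. The lowest difference was that of MIR191, at 7.12 on BSA and 6.81 on rLCC111, or -0.30. Of the genes above the limit, MIR181C followed with 7.15 and 6.99, MIR503 with 6.95 and 6.81, MIR124-2 with 6.84 and 6.69, and MIR375, known from pancreatic islets, with 7.07 and 6.96. MIR106B, MIR99B and MIR211 were the only other genes above the limit with a difference below 0, at -0.06, -0.01 and -0.01. The lower side therefore reached -0.30 while the upper side reached 1.40.

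In the let-7 family 9 genes had a sequence of their own. Of these 8 had a difference above 0, none was below 0, and MIRLET7E had 5.52 on both arrays. Their median difference was 0.34, and with MIR98, which shares the seed, 0.31 over 10 genes. MIRLET7A2 and MIRLET7I were above the limit on both arrays, MIRLET7G and MIRLET7D on rLCC111 alone, and the other 5 on neither. MIRLET7I was bright and changed little, at 7.66 and 7.70, a difference of 0.04. The family therefore held both a bright gene with a difference of 1.40 and a bright gene with almost none. Under quantile normalization 7 of the 9 were above 0 and the median was 0.28. MIRLET7A3 and MIRLET7B, not among the 9, were read only by sequences shared with MIRLET7BHG. These differed by 0.02 and -0.04, the latter at 7.36 and 7.32, above the limit on both arrays.

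Different genes for the same mature let-7 differed in size. MIRLET7A1 and MIRLET7A2 both encode let-7a-5p, but MIRLET7A1 had 4.64 and 4.75, which differ by 0.12, under the limit on both arrays. Their hairpins, printed above, are identical at 59 of 80 aligned positions (73.8%). MIRLET7F1 and MIRLET7F2 both encode let-7f-5p and are identical at 66 of 91 aligned positions (72.5%); the first had a difference of 0.69 and the second 0.20, from 4.91 to 5.11. The closest pair, MIRLET7A1 and MIRLET7F2, were identical at 85.9% of aligned positions. Whether probes of one hairpin also read another was not tested. MIRLET7C was at 3.91 and 4.25 and MIR98 at 3.68 and 3.96, both under the limit.

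**Figure D2:**
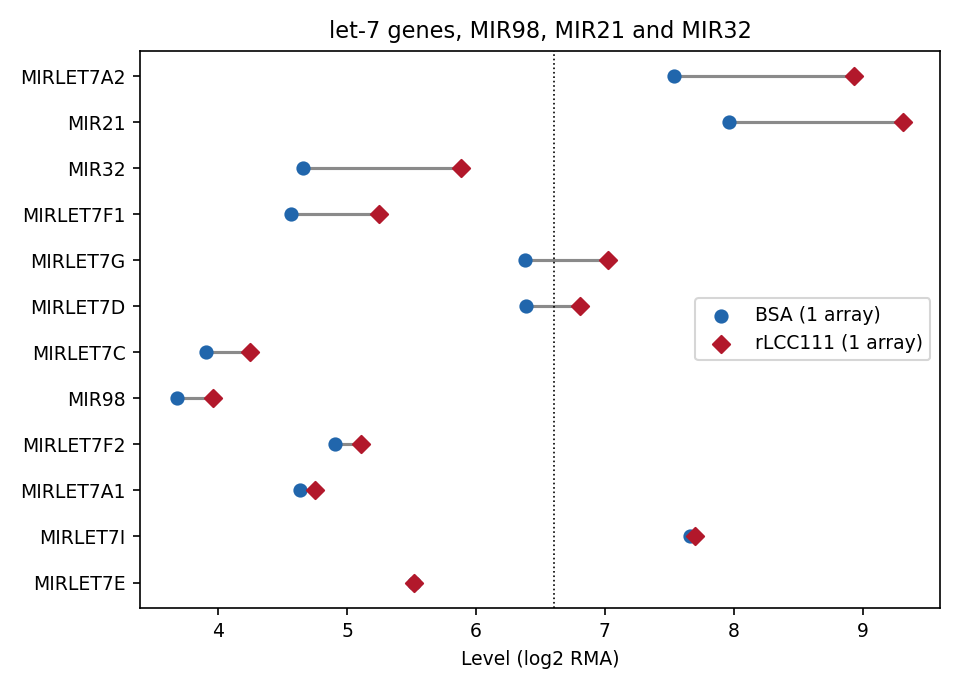
Levels (x axis, log2 RMA) of the 9 let-7 genes, MIR98, MIR21 and MIR32, ordered by their difference from top to bottom; circles are the BSA array, diamonds the rLCC111 array, 1 array each, and the dotted line is the limit of 6.61. MIRLET7A2 and MIR21 lie to the right of the limit on both arrays with the widest gaps, MIRLET7I lies to the right with almost no gap, and the 2 symbols of MIRLET7E coincide.

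Other seed families did not all move one way. In the miR-181 family MIR181A2 had a difference of 0.77, MIR181B2 0.58, MIR181A1 0.04, MIR181C -0.17 and MIR181B1 -0.28, and MIR181C was the only one above the limit. MIR32 at 1.23 shared its seed with MIR25 at 0.05 and MIR92A2 at 0.24. Of the genes with a mature sequence in the RefSeq table used here, 5 had the miR-15 and miR-16 seed AGCAGCA and lay between 0.00 and 0.16, none of them above the limit. The 4 such genes with the miR-30 seed GUAAACA lay between -0.01 and 0.23. The seed belongs to the mature product, which the array does not read.

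Neighbouring genes were grouped where they lie on the same strand with at most 10 kb between them in RefSeq, which 164 of the 173 genes could be placed for. This gave 28 clusters with 73 genes. The median difference was above 0 in 22 clusters and below 0 in 5. In 11 clusters every member was above 0, and in none was every member below 0. Of the 73 genes in clusters 67.1% were above 0 and 23.3% below, and of the other 100 microRNA genes 60.0% and 24.0%. The brighter array was above the limit for 18 of the 73. Whether the cluster counts differ from those of random groups of microRNA genes was not tested. After quantile normalization 12 of the 28 medians were above 0.

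The cluster of MIRLET7A2 and MIR100 had the highest median, 0.85, but its members differed: MIR100 was at 4.33 and 4.63, under the limit, with a difference of 0.30. Both lie with MIR125B1, at 5.79 and 5.89, inside the span of the noncoding host gene MIR100HG. BLID, a further gene inside that span, had 6.93 and 8.18, a difference of 1.25 or 2.38-fold. So in the one host span MIRLET7A2 and BLID were over 2-fold higher while MIR100 and MIR125B1 were not, the latter pair under the limit on both arrays. No level of MIR100HG itself was used here.

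MIR181A2 and MIR181B2 followed with a median of 0.68, both under the limit, MIR181B2 at 5.30 and 5.88. The other miR-181 cluster measured, MIR181B1 and MIR181A1, had a median of -0.12. MIRLET7A1, MIRLET7F1 and MIRLET7D, which lie together on chromosome 9, had differences of 0.12, 0.69 and 0.41. MIR221 was at 8.10 and 8.28, a difference of 0.18 beside the 0.57 of its neighbour MIR222. The members MIR23A, MIR27A and MIR24-2 had 0.35, 0.17 and 0.21. In these last 3 clusters all members were above 0 but no member reached 2-fold.

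The largest cluster, the imprinted chromosome 14 genes from MIR487A to MIR410, held 9 measured genes with a median of 0.06, from -0.20 in MIR410 to 0.26 in MIR323B. Only 2 of the 9 had the brighter array above the limit, MIR323B among them on rLCC111 alone, and MIR410 was under it on both arrays. Beside this cluster the 5 genes from MIR299 to MIR376C had a median of 0.00, from -0.07 in MIR323A to 0.31 in MIR299, all under the limit. MIR25, MIR93 and MIR106B, inside MCM7, lay between -0.06 and 0.08, MIR93 under the limit on BSA and the other two above it on both arrays. MIR200B, MIR200A and MIR429, the epithelial miR-200 genes, had a median of 0.07. MIR425 and MIR191 had the lowest median, -0.14.

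**Figure D3:**
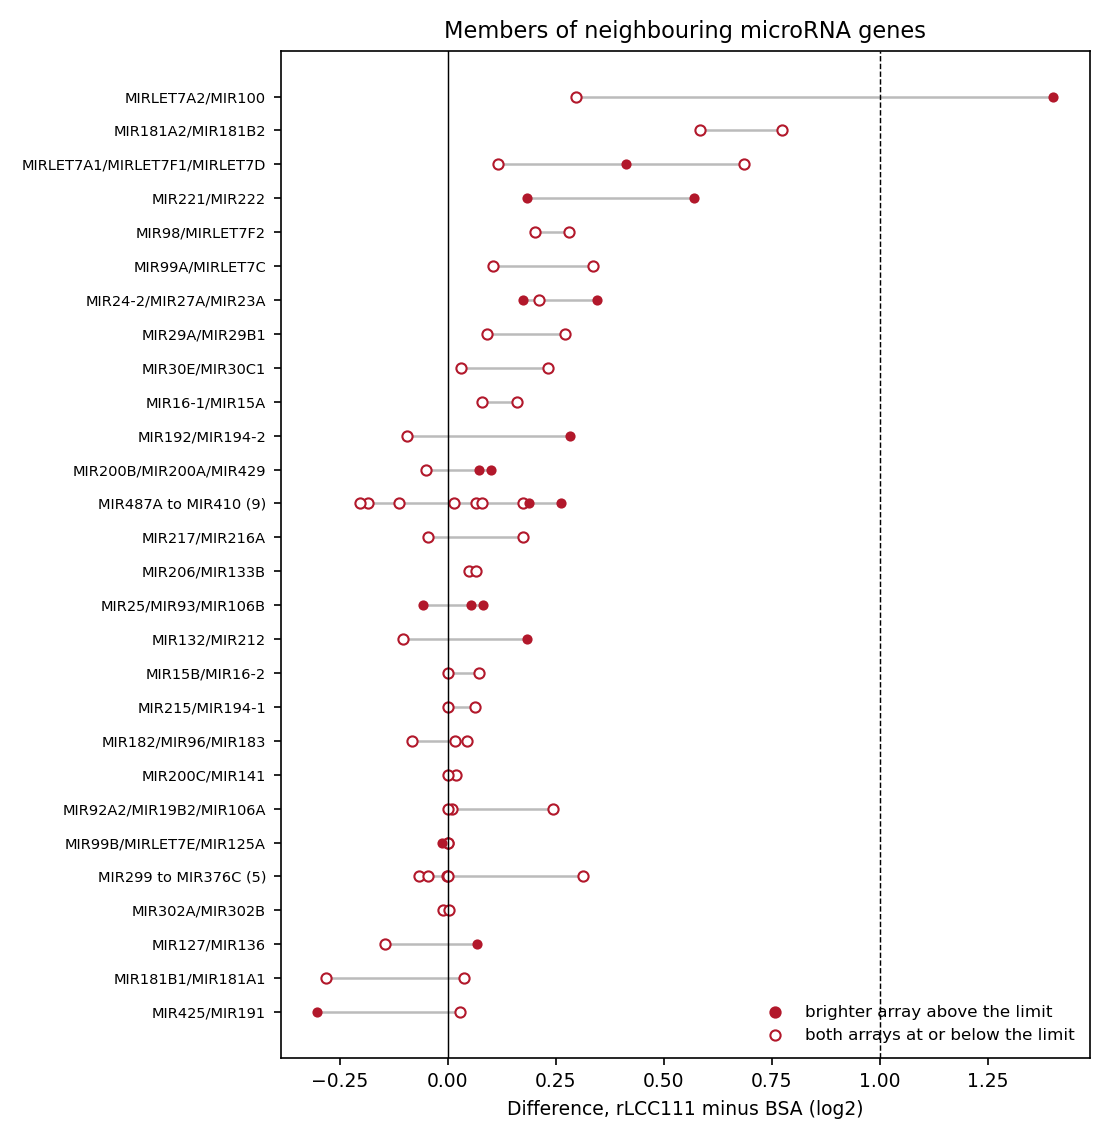
Difference (x axis, log2 rLCC111 minus BSA) of each member of the 28 clusters of neighbouring microRNA genes, 1 row per cluster ordered by its median; filled points have the brighter array above the limit of 6.61, open points do not, and the dashed line marks 2-fold. MIRLET7A2 in the top row lies alone beyond the dashed line, and MIR191 at the bottom is the lowest point.

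Host genes were compared with the microRNA genes they contain. In RefSeq 112 of the microRNA genes lie inside the span of another gene on the same strand, and 63 of them have a host with a sequence of its own on the array, 52 hosts in all. No host differed by 1.5-fold in either direction, and host differences ran from -0.43 to 0.38. Over all genes 1.08% were higher and 0.543% lower at this threshold, so the lack of such a host among 52 is near the general share. In most of the 63 pairs the microRNA gene, its host or both were under the limit, and only 18 had both above it. The microRNA gene had the higher difference in 45 of the 63 pairs and the lower in 17, and they were equal in 1. The median of the microRNA genes in these pairs was 0.06, that of the hosts -0.05, and the median of member minus host was 0.14, which became 0.0896 with lowess and 0.0879 with quantile normalization. Across the 63 pairs, which are not independent since some share a host and all share the same 2 arrays, Pearson's r of the differences was -0.06 and Spearman's rho -0.10. In the 18 pairs with both above the limit r was 0.11 and rho 0.04.

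MIR21 overlaps the end of VMP1, a gene of autophagy, which had 11.93 on BSA and 11.94 on rLCC111, so the difference of 1.35 at MIR21 stood beside 0.01 at its host. MIR32 lies in TMEM245, which was at 11.06 and 10.78, a difference of -0.28. MIRLET7G lies in WDR82, at 11.33 and 11.31. MIR31HG, which holds MIR31, was at 8.35 and 8.36. None of these 4 hosts was higher on rLCC111 by more than 0.01.

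Other pairs showed other orders. MIR191 lies in DALRD3, which differed by 0.04 against -0.30 for the microRNA gene. MIR503 and its host MIR503HG were both lower, at -0.15 and -0.40. MIRLET7E, with no difference, lies in SPACA6 at 0.38. MIRLET7C, at 0.34, lies in MIR99AHG at -0.41, where both are under the limit. MIR98 and MIRLET7F2, at 0.28 and 0.20, lie in HUWE1, a ubiquitin ligase, at 0.14.

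**Figure D4:**
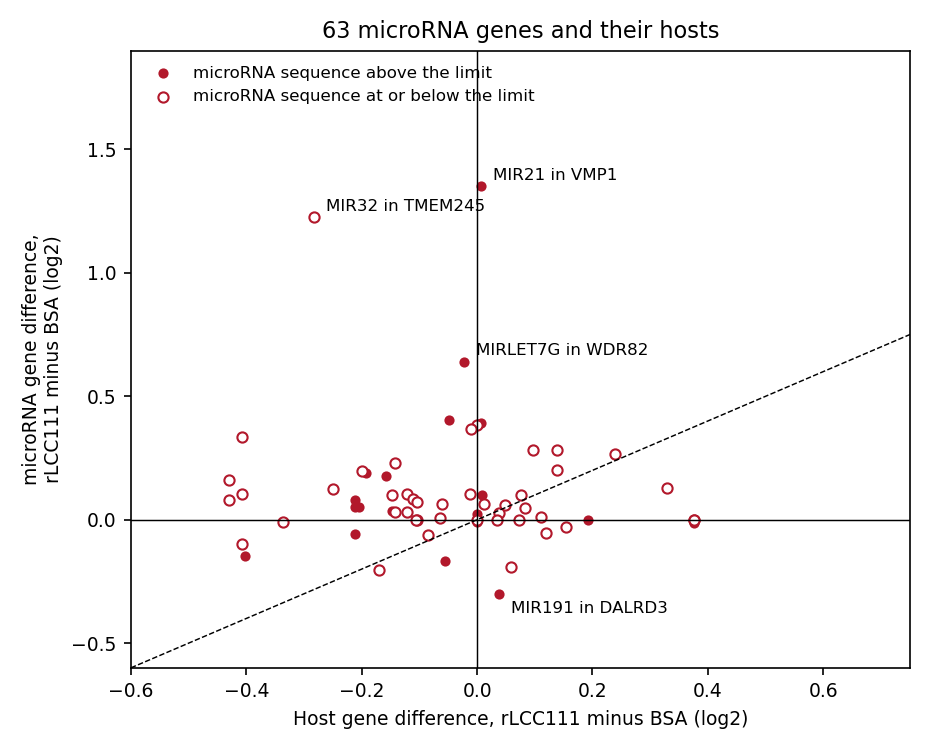
Difference of 63 microRNA genes (y axis, log2 rLCC111 minus BSA) against that of the host gene around each (x axis, same scale), filled where the brighter array of the microRNA sequence is above the limit of 6.61; the dashed line marks equal differences. MIR21, MIR32 and MIRLET7G lie far above the dashed line with hosts between -0.28 and 0.01, and all hosts lie between -0.43 and 0.38.

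The machinery that makes and uses microRNAs was read on the same arrays, and none of its genes differed 2-fold. Over all genes only 0.239% were 2-fold higher and 0.0869% lower. The lack of a 2-fold gene in lists this short, here and below, is therefore near the general share. Of 12 genes listed for the microprocessor and export, 10 were measured, 5 above and 5 below 0, with a median of -0.06. DROSHA differed by 0.02, DGCR8 by 0.04 and XPO5 by -0.21. All 17 genes listed for Dicer, argonautes and their silencing partners were measured, with 11 above 0, 5 below and a median of 0.06. DICER1 was at 11.13 and 11.26 and AGO2 at 10.56 on both arrays. The widest difference in this list was 0.44, of AGO4, at 6.95 and 7.39.

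Of the 8 genes listed for the control of let-7, 6 were above 0 and 2 below, with a median of 0.08 and no 2-fold difference. LIN28B, which blocks let-7 processing, was at 6.46 on BSA and 6.10 on rLCC111, under the limit on both. LIN28A, its relative, was at 6.56 and 6.64. TUT4, the enzyme that adds uridines to blocked let-7 hairpins, differed by 0.20.

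Textbook targets were also read, though the array measures only their messenger RNA. Of 18 listed targets of miR-21, 15 were measured, with 10 above 0, 5 below, a median of 0.06 and no 2-fold difference. At 1.5-fold 1 of the 15 (6.67%), TPM1, was higher and none lower, beside 1.08% of all genes higher and 0.543% lower. TPM1, an actin-binding tropomyosin, was at 11.13 and 11.79, a difference of 0.66, and TIMP3, a metalloproteinase inhibitor, at 9.40 and 9.95. LRRFIP1 differed by 0.50. PDCD4, the best known target, was at 7.95 and 8.17. The 3 widest differences in this list were thus above 0.

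Of 19 listed targets of let-7, 15 were measured, with 4 above 0, 10 below, 1 at 0 and a median of -0.13, beside 0.00 for all genes. None reached 2-fold or 1.5-fold. At 1.5-fold 1.08% of all genes were higher and 0.543% lower. CCND2, a cyclin, was at 8.62 and 8.08, a difference of -0.54. FAS, a death receptor, was at 9.59 and 9.14, and MYC, a transcription factor of growth, at 10.69 and 10.33. HMGA1 differed by -0.35 and CDK6 by 0.15. HRAS, a RAS gene, was at 9.08 on both arrays, and HMGA2 was not among the 15 measured. LIN28B, TRIM71, DICER1 and CDC25A also belong to another of the lists read here. The median stayed below 0 under each of the 3 scalings, at -0.09 to -0.14, but so did the median of all genes. After quantile normalization the median of the let-7 targets was -0.11, against -0.06 for all genes.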

How the data were processed

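The values are deposited log2 expression levels of 33297 sequences on 2 arrays, which the authors made with RMA in Affymetrix Expression Console (version not given in the sources used here, like the RMA settings). Although the methods name limma, 1 array per coating leaves no residual degree of freedom, so no p-value is given. Sequences were named through the platform's annotation, with symbols updated to RefSeq: 19460 carry 1 symbol, 1754 several and 12083 none. A gene was given by its brightest sequence with 1 symbol. Genes lying inside others and neighbours came from the RefSeq gene table (GRCh38.p14).

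The members and all lists were chosen with earlier results of these data known. Named were MIR21, let-7 genes, MIR98, genes at least 2-fold different, the 10 largest differences in each direction and the 15 highest levels above the limit, the extremes of clusters of 4 or more, hosts of these, and the 3 largest differences of each list. Other cluster and seed family members, BLID and further list members were picked with their values in view. Differences were recomputed with median centring, lowess (span 0.2, 3 iterations) and quantile normalization. Filters on low levels and means per gene were tried for the counts and the median of all members, other limits for the count above the limit, and other distances for the clusters. The code for counting was tested on simulated levels with known differences and little noise, which does not measure how reliable the counts are. Python 3.11.15, numpy 2.4.6, pandas 2.3.3, scipy 1.17.1, statsmodels 0.14.6, biopython 1.88 and matplotlib 3.10.9 were used.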

Additional observations from a re-analysis of the deposited data

How the results depend on the processing

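With 1 array per coating, a median was taken as moved when it changed by more than the SD of the sensory receptor genes' differences, 0.18, divided by the square root of its number of genes. MIRLET7A2, MIR21 and MIR32 were at least 2-fold higher under each scaling, at 1.34, 1.29 and 1.16 after quantile normalization, where values were smallest, and no microRNA gene was 2-fold lower. MIR32 dropped out with either filter on low levels, which left 2 genes. Over 3 scalings no single member moved by more than 0.09. The median difference of microRNA genes, 0.05, became 0.0187 with lowess, -0.0174 with quantile normalization, 0.0934 with the brighter array above the limit and 0.0680 with both arrays above it. Relative to all genes it stayed at 0.04 to 0.05 under the 3 scalings. Clusters with a median above 0 numbered 22, and 12 after quantile normalization. The median of member minus host, 0.14, became 0.0896 with lowess and 0.0879 with quantile normalization. At 1.5-fold 6 genes were higher. With the limit at the 99th percentile, 7.54, 15 members were above it, and with the 90th, 6.10, there were 62. The let-7 median under the 3 scalings, and the median level under quantile normalization, means per gene and other choices of sequences or symbols, moved by less than this measure. No paired analysis was possible because each coating has 1 array. Signal over background limits the 128 genes under the limit.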

Other observations

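A further 34 microRNA genes were read only by 32 sequences that carry several symbols, so none of these values belongs to 1 gene. Of the 32 sequences 16 had a difference above 0 and 16 below, the median was 0.00, and none was 2-fold different. The sequence of MIR155 and its host MIR155HG was the lowest, at 7.49 on BSA and 7.01 on rLCC111, a difference of -0.48. Of the 2 sequences shared by MIR105-1 and MIR105-2, the one with the highest difference of all 32 was at 5.17 and 5.55, a difference of 0.38, under the limit. The remaining let-7 genes fell here: the sequence of MIRLET7A3 and MIRLET7BHG was at 5.77 and 5.79, and that of MIRLET7B and MIRLET7BHG at 7.36 and 7.32. The sequence of MIR622 and the keratin gene KRT18 was the brightest, at 11.82 and 11.67.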
